A study of Mus musculus with 4 samples.

Results

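The 43 genes described here encode the receptor proteins through which cells sense GABA and glutamate, the main inhibitory and excitatory transmitters of the brain. They were chosen by symbol among the genes listed in the deposited tables, from the GABA-A (Gabra, Gabrb, Gabrg, Gabrd, Gabre, Gabrq, Gabrr), GABA-B (Gabbr), AMPA (Gria), kainate (Grik), NMDA (Grin), delta (Grid) and metabotropic glutamate (Grm) series. Matching by symbol used no level, but these genes were proposed as a set with earlier results of these data known. They are 43 of 20136 genes listed in at least 1 of the deposited tables: 41 of them are in all 4 tables, Gabrr1 is in 1 and Grin3b in 2. Gabra6, Gabrr3, Gabrp and Grm6 were not analysed here. The members held 66047 of the unique molecular identifiers (UMIs, each standing for 1 captured mRNA molecule) in the cells kept.

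The tissue was punched from the bed nucleus of stria terminalis (BNST), a part of the extended amygdala, and read by Drop-seq, a droplet method that reads the 3′ ends of mRNAs of single cells. There were 4 libraries, each made from the pooled tissue of 6 male wildtype C57BL/6J mice kept on a reversed light cycle, 24 mice in all. No library was treated or mutant, so the comparisons are between cell classes within a library, and the replicate is the library. Pooling means that the spread between mice cannot be seen.

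GABA-A receptors are chloride channels built as pentamers, usually from alpha, beta and gamma subunits, with delta, theta or rho subunits in other combinations. GABA-B receptors are G-protein-coupled dimers of Gabbr1, which binds GABA, and Gabbr2, which couples to G proteins. AMPA, kainate and NMDA receptors are tetrameric cation channels. The Gria2 subunit keeps AMPA receptors nearly impermeable to calcium, Grin1 is needed in every NMDA receptor, and the Grin2 subunit sets how long the channel stays open. Delta receptors bind cerebellins at synapses, and the metabotropic receptors fall into group I (such as Grm5; coupled to calcium release), group II (Grm2, Grm3) and group III (Grm4, Grm7, Grm8), the latter groups lowering cyclic AMP. Glia carry some of these receptors too and respond through them to transmitter released by neurons.

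Of 10200 deposited barcodes 4181 cells were kept, and they fell into classes by UMIs of fixed marker panels: 2536 neurons, 926 oligodendrocytes, 399 astrocytes, 123 oligodendrocyte precursor cells (OPC), 49 endothelial, 27 mural or fibroblast and 10 microglial cells, with 111 in no class. The libraries held 2640399 to 5652342 UMIs, and the median kept cell held 1849. No barcode was shared between libraries among the kept cells, and 358 kept cells had a barcode ending in an undetermined base. Among markers outside the panels, Mal averaged 7970 counts per 1000000 (CPM) in oligodendrocytes against 7.57 in neurons, Slc1a2 averaged 7147 in astrocytes and Ptprz1 averaged 2062 in OPC. Slc1a2 and Ptprz1 are given without their levels in other classes, so these values alone do not check the class names. Not every marker outside the panels followed the names: the neuronal gene Elavl4 stood at 96.5% of its neuronal level in OPC. Of the neurons 2317 held GABAergic and 102 glutamatergic transmitter transcripts, and 117 held neither or were ambiguous. The median neuron held 3160 UMIs, against 1392 for oligodendrocytes, 1027 for OPC and 816 for astrocytes, so low levels are measured less precisely in glia.

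Levels are UMIs of a gene per 1000000 UMIs of its class in 1 library (CPM), and means carry the SD over 4 libraries. The counts come from 3′ ends, so they were not divided by length; they compare a gene between classes, while shares within a family are shares of UMIs and can carry gene-specific capture. Neuronal RNA free in the droplets can add UMIs to glia. It was gauged by 8 neuronal genes outside the marker panels, which stood at a median of 2.92% of their neuronal level in astrocytes (range 1.20% to 6.95%), 2.05% in oligodendrocytes (1.46% to 6.61%) and 10.3% in OPC (2.08% to 96.5%, the highest being Elavl4). A count of 0 allows a level of up to 8.10 CPM in astrocytes, 1.90 in oligodendrocytes, 21.1 in OPC and 0.309 in neurons (3 counts over all 4 libraries), and these limits cover counting error only.

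Neurons held the highest summed level of the members, and the 7 families differed in how far glia approached the neuronal level. The members together made up 6727 ± 1047 CPM in neurons, 4478 ± 623 in OPC, 3408 ± 415 in astrocytes and 611 ± 120.5 in oligodendrocytes (SD, n = 4). Per library the sums were 5699, 6097, 8035 and 7077 in neurons, and 507, 545, 779 and 615 in oligodendrocytes. The ranges of these 2 classes were far apart. Of the members, 14 had no UMI in astrocytes, 9 in oligodendrocytes and 14 in OPC, while all 43 had at least 1 in neurons. Neurons held 9720836 UMIs, against 1582659 in oligodendrocytes, 370423 in astrocytes and 142378 in OPC. Detection depends on this depth, so the counts do not show that neurons carry a wider set. As a percentage of the neuronal level, 22 members in astrocytes stood above the highest neuronal check gene (6.95%). In oligodendrocytes 13 stood above it (6.61%), and in OPC 10 (96.5%, set by Elavl4, with Syn1 next at 19.6%). The limits differ between classes, so these counts do not rank the classes. Above the neuronal level itself were 7 members in astrocytes, 2 in oligodendrocytes and 9 in OPC.

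**Figure D1:**
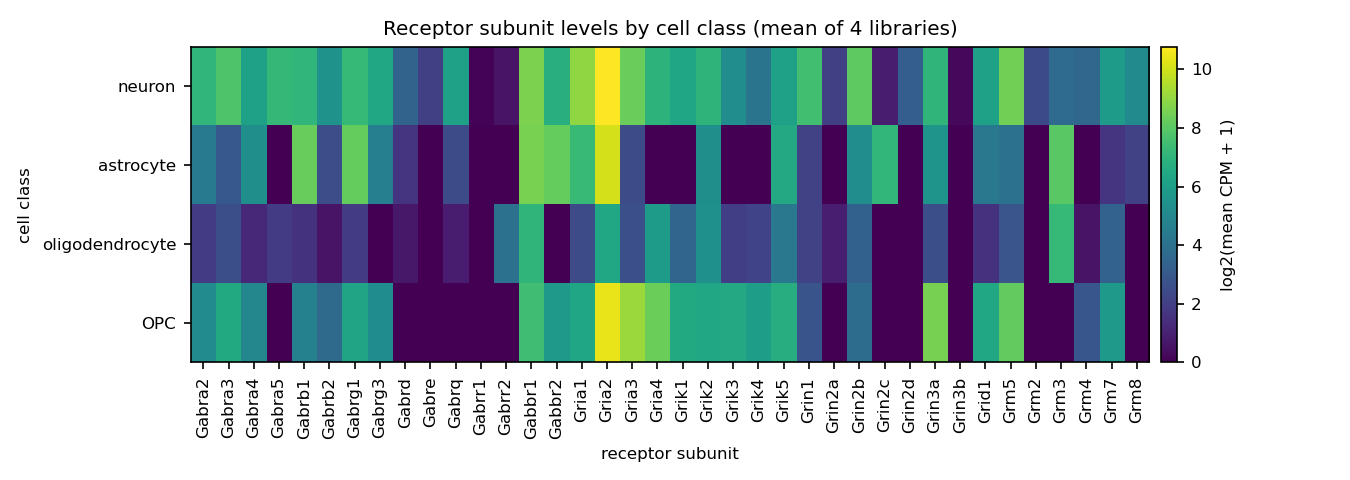
Heat map of the level of 38 members (horizontal axis, ordered by family) in neurons, astrocytes, oligodendrocytes and OPC (vertical axis), as log2(mean CPM + 1) over 4 libraries, from dark for 0 to bright for the highest level. The AMPA subunit Gria2 is the brightest neuron entry at 1741 CPM, and the Grm3 and Grin2c entries are brighter in astrocytes (258 and 139 CPM) than in neurons (12.5 and 0.812 CPM).

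Most GABA-A subunits had their highest level in neurons. Alpha subunits, which shape the GABA and benzodiazepine sites, summed to 916 ± 30.3 CPM in neurons, 221 ± 53.7 in OPC, 73.2 ± 29.3 in astrocytes and 17.1 ± 2.90 in oligodendrocytes. Within neurons Gabra3 stood at 219.7 ± 32.9 CPM, Gabra5 at 144 ± 21.4, Gabra2 at 135 ± 27.2 and Gabra4 at 69.7 ± 13.1. The ranges of Gabra5 and Gabra2 overlap, while those of Gabra3 and Gabra4 stand clear of each other. Beta and gamma subunits kept a larger part of their level in astrocytes: the beta sum was 450.2 ± 68.7 CPM in neurons and 334 ± 69.2 in astrocytes, and the gamma sum 485 ± 24.9 and 326 ± 70.9. Outside these groups, theta (Gabrq) stood at 70.0 ± 13.6 CPM in neurons, the extrasynaptic delta subunit (Gabrd) at 9.83 ± 2.37 from 90 UMIs, and Gabre, Gabrr2 and Gabrr1 gave 26, 6 and 1 UMIs in all neurons.

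GABA-B transcripts were frequent in both astrocytes and neurons, with a sum of 677 ± 153 CPM in astrocytes and 508 ± 86.7 in neurons. The astrocyte sums of 577, 663, 898 and 571 CPM and the neuronal sums of 417, 452, 592 and 572 overlapped. The partner subunits were distributed differently. Gabbr1 stood at 382 ± 109 CPM in astrocytes and 401 ± 65.4 in neurons, whereas Gabbr2 stood at 295 ± 121 and 107 ± 22.0.

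AMPA subunits gave the highest sums of any family in neurons (2691 ± 466 CPM), OPC (2350 ± 267) and astrocytes (1251 ± 334), but not in oligodendrocytes, where they summed to 154 ± 44.4 CPM and the metabotropic receptors to 166 ± 41.1. Gria2 was the most frequent member in neurons at 1522, 1607, 1975 and 1862 CPM in libraries 1 to 4, in astrocytes at 1421, 729, 1149 and 1062, and in OPC at 1423, 1118, 1438 and 1498. In oligodendrocytes it stood at 61.5, 57.2, 102 and 112 CPM, below both Grm3 and Gabbr1 on average. Gria1, the subunit most tied to activity-dependent insertion, averaged 510.1 ± 153 CPM in neurons, Gria3 315 ± 84.2 and Gria4 124 ± 31.3. Kainate subunits summed to 333 ± 82.6 CPM in neurons, 434 ± 68.4 in OPC, 130.4 ± 28.0 in astrocytes and 77.5 ± 6.08 in oligodendrocytes. Grik2 (128 ± 44.3 CPM), Grik1 (79.7 ± 21.3) and Grik5 (70.7 ± 8.35) led that family in neurons, and the ranges of Grik1 and Grik5 overlap.

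NMDA subunits in neurons were mainly the obligatory Grin1 (179 ± 59.2 CPM) and Grin2b (269 ± 96.9 CPM), with the modulatory Grin3a at 131 ± 33.3. Grin2b made up 95.5 ± 1.58% of the Grin2a to Grin2d UMIs in neurons (SD, n = 4), and Grin2a, Grin2d and Grin2c gave 27, 74 and 8 UMIs. The delta receptor gene Grid1 stood at 71.3 ± 14.8 CPM. Among metabotropic receptors Grm5 led in neurons at 237, 269, 469 and 424 CPM in libraries 1 to 4, with Grm7 at 61.3 ± 22.8 and Grm8 at 34.9 ± 6.43. Group II was the 1 metabotropic group with a higher sum in astrocytes (258 ± 67.2 CPM) and oligodendrocytes (149 ± 42.7 CPM) than in neurons (16.8 ± 4.91 CPM), and it had no UMI in OPC. Grm2, Grm4 and Grin3b gave 38, 97 and 2 UMIs in neurons.

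Astrocytes differed from neurons by a small set of subunits that were higher in the glia and a long list that were lower. Of 34 members above the low-count filter, 25 were higher in neurons and 6 higher in astrocytes (edgeR quasi-likelihood test with the library as a block, Benjamini-Hochberg adjusted p under 0.05). Over all 9449 genes tested, 32.5% were higher in neurons and 22.1% higher in astrocytes. The median log2 difference of these members, neuron minus astrocyte, was 2.85, or 2.32 with genes absent from astrocytes set at their lower bound, beside 0.29 over all genes tested. Among the 6 were Grin2c, Grm3, Gabbr2, Gabrb1 and Gabrg1. In this and the later contrasts a gene could pass the filter through the class where it is frequent. The counts therefore describe the members tested and not all 43.

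Grin2c, an NMDA subunit with weak magnesium block known from astrocytes and cerebellar granule cells, stood at 103, 66.3, 241 and 146 CPM in astrocytes of libraries 1 to 4 and at 0.985, 0, 1.32 and 0.941 in neurons. The classes did not overlap, and the log2 difference was -7.22 (SE 0.475, adjusted p = 1.63e-50). Its neuronal values rest on 8 UMIs and its astrocyte values on 53, so it passed the filter through the astrocyte counts. Grm3, a group II receptor of astrocytes that lowers cyclic AMP, stood at 233, 345, 270.4 and 186 CPM in astrocytes and 9.85, 9.40, 15.2 and 15.5 in neurons. Every astrocyte value was above every neuronal one, with a log2 difference of -4.46 (SE 0.296, adjusted p = 1.17e-49). Gabbr2, the signalling subunit of the GABA-B receptor, stood at 276, 159, 454 and 292 CPM against 86.2, 92.5, 133 and 117. Here too the astrocyte values lay above the neuronal ones, with a log2 difference of -1.56 (SE 0.207, adjusted p = 4e-13). For cells with at least 800 genes the Gabbr2 difference was -1.08 with adjusted p = 0.12.

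Gabrb1 and Gabrg1, a beta and a gamma subunit of the GABA-A receptor, both stood above neurons in each astrocyte library. Gabrb1 was at 241, 278, 348 and 372 CPM against 115, 122, 161 and 147, a log2 difference of -1.26 (SE 0.199, adjusted p = 1.37e-09). Gabrg1 was at 258, 385, 299 and 239 CPM against 138, 145, 172 and 131, a log2 difference of -1.08 (SE 0.199, adjusted p = 3.02e-07). These genes sit in 1 cluster on chromosome 5 (GENCODE vM21 on GRCm38): Gabrg1 spans chr5:70751047-70842617 on the minus strand and Gabrb1 spans chr5:71658113-72149037 on the plus strand. Gabra2 lies between them, and Gabra4 (chr5:71569749-71658308, minus strand) overlaps the start of Gabrb1 on the opposite strand. The strand used in counting was not given in the sources used here, so reads from that overlap cannot be assigned with certainty. Of the other genes of the cluster, Gabra2 was higher in neurons (log2 difference 2.53, adjusted p = 8.54e-09) and Gabra4 did not pass the test (0.73, adjusted p = 0.106).

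Among the most neuronal members, several had no UMI in astrocytes, so their folds are lower bounds against 3 counts over the group. Gabra5, the alpha subunit of extrasynaptic receptors, stood at 156, 165, 116 and 138 CPM in neurons, at least 18.3-fold higher (adjusted p = 8.77e-18). Gria4, the AMPA subunit of fast kinetics, stood at 102, 120.2, 169.8 and 105 CPM, at least 14.5-fold higher. Grik1, a kainate subunit, stood at 67.2, 63.3, 110.4 and 78.1 CPM, at least 9.32-fold higher. All 3 were detected in every neuronal library. Gria3, among the more frequent neuronal transcripts, gave too few astrocyte UMIs for a stable fitted fold, and its pooled neuron-to-astrocyte ratio was 55.4 (95% exact interval 15.3 to 458). Gria2 and Gria1 were lower in astrocytes by less: their log2 differences were 0.58 (SE 0.141, adjusted p = 0.000116) and 1.59 (SE 0.205, adjusted p = 7.66e-14). The tested members not called were Gabbr1, Grik5 and Gabra4 (adjusted p = 0.951, 0.181 and 0.106), which does not show that their levels are equal.

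**Figure D2:**
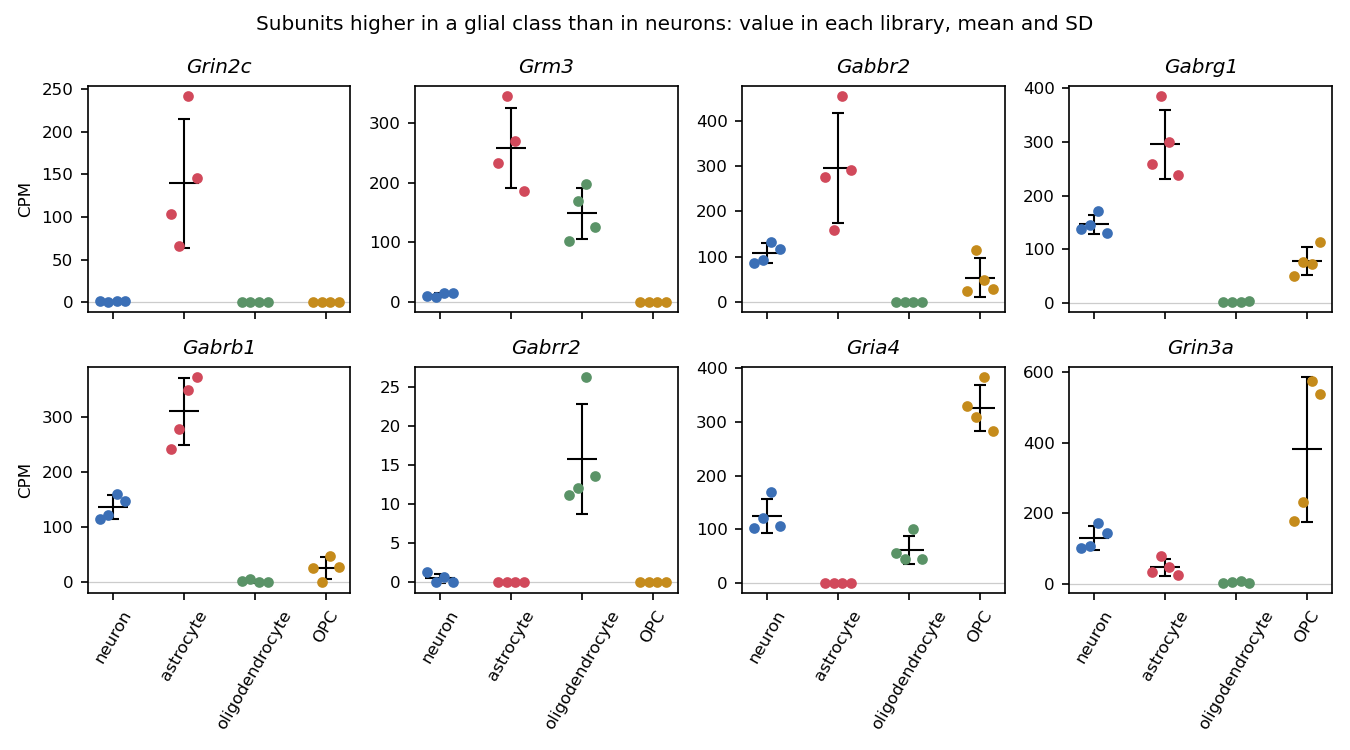
Level in CPM (vertical axes) of 8 members in neurons, astrocytes, oligodendrocytes and OPC (horizontal axis); points are the 4 libraries, and the markers with bars give the mean and SD. Grin2c, Grm3, Gabbr2, Gabrg1 and Gabrb1 are above their neuronal points in all 4 astrocyte libraries, Gabrr2 is highest in oligodendrocytes, and Gria4 and Grin3a are above their neuronal points in OPC.

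Promoter sequence is shown for 4 members whose level separated the glial classes: Gabrg1, Grm3 and Grin2c, which were higher in astrocytes than in neurons, and Gria4, which had no astrocyte UMI but was detected in each OPC library. Each run is the 250 bases before the annotated start (RefSeq, GRCm38.p6), 5′ to 3′ on the gene's own strand, which is the minus strand for all 4. Capitals mark the GC box GGGCGG or its reverse complement, a motif bound by Sp1 family factors. The windows lie at chr5:70842618-70842867 for Gabrg1, chr5:9725353-9725602 for Grm3, chr11:115267244-115267493 for Grin2c and chr9:4796235-4796484 for Gria4, and none holds an annotated exon.
Gabrg1: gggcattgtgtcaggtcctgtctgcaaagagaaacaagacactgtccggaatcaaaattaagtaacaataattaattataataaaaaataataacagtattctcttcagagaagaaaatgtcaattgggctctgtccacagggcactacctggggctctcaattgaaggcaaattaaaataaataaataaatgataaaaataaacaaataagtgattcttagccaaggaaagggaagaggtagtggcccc
Grm3: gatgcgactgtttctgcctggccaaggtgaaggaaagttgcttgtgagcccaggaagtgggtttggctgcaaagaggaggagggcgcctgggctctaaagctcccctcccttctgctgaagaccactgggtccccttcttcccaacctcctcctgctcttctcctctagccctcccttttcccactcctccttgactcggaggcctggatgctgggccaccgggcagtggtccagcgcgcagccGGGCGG
Grin2c: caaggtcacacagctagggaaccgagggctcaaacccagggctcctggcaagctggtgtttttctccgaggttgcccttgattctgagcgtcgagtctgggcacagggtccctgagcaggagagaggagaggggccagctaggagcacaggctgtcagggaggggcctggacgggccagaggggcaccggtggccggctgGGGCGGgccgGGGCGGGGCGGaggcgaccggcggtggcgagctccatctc
Gria4: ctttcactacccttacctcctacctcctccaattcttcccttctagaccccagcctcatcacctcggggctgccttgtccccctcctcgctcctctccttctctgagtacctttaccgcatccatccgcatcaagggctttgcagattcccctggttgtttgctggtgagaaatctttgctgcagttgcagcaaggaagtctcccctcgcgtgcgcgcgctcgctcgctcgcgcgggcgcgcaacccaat
The Gabrg1 window was rich in A and T, with 35.6% G or C and 1 CpG, and held no GC box. Grin2c was at 68.8% with 3 GC boxes, of which 2 share a base, Grm3 at 62.4% with 1 GC box, and Gria4 at 58.8% with none.

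Start-site sequences were matched for 28 of the 43 members by symbol, giving 35 windows; among those with no matched entry were Grin2b, Gria3, Grin3a, Grm4, Gabrd, Gria1, Grin2a, Grid1, Grm5 and Grik1. The median GC content of the 35 windows was 61.2%, beside 52.4% over all 32851 windows of the same length, with a median of 9 and 6 CpG. On either strand, GGGCGG was present in 51.4% of member windows and 32.7% of all windows, and the TATA box TATAAA in 11.4% and 12.4%. The SOX core ACAAAG was in 5.71% and 16.5%. The NFI palindrome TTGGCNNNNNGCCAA was in 0% of member windows and 0.0365% of all. These are matches of letters in these windows and say nothing of whether a factor binds.

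The receptor partner list held auxiliary, scaffold and synaptic organiser genes. Of 34 of its 41 listed genes above the filter, 24 were higher in neurons and 3 in astrocytes, beside the 32.5% and 22.1% of all genes given above. The 3 were Shisa9, an AMPA auxiliary protein (209 ± 25.6 CPM in astrocytes against 58.2 ± 3.98 in neurons, log2 difference -1.92), the auxiliary subunit gene Cacng7 (-1.55) and the scaffold gene Dlgap1 (-0.56). The most neuronal were the pentraxin receptor gene Nptxr and the AMPA auxiliary genes Cacng2 and Cacng3. None of these had a UMI in astrocytes, and they were at least 12.5-fold, 11.1-fold and 6.27-fold higher in neurons.

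Of the 3 glial classes tested, oligodendrocytes held the fewest receptor transcripts per UMI, and Grm3 and Gabrr2 were the members higher there than in neurons. Of 34 members above the filter 31 were higher in neurons and 2 in oligodendrocytes (edgeR quasi-likelihood test, library block), beside 39.5% and 30.3% of all genes tested. Their median log2 difference was 5.14, or 5.01 with absent genes at their bound, against 0.15 over all genes. Gabrr2, a rho subunit best known from the retina, stood at 11.2, 12.0, 26.2 and 13.6 CPM in oligodendrocytes and 1.23, 0, 0.661 and 0 in neurons. The ranges were apart, from 25 and 6 UMIs, and the log2 difference was -4.84 (SE 0.611, adjusted p = 1.19e-09). Gabrr2 passed the filter through its oligodendrocyte counts and was under it against astrocytes and OPC. Its test is thus that of a gene admitted by the class where it is high. Grm3 stood at 103, 169, 198 and 126 CPM against 9.85, 9.40, 15.2 and 15.5. No oligodendrocyte value was near the neuronal range, and the log2 difference was -3.97 (SE 0.195, adjusted p = 8.2e-24).

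Among the most neuronal members against oligodendrocytes, 3 had no UMI in the glia. Gabbr2 stood at 86.2, 92.5, 133 and 117 CPM in neurons, at least 53.6-fold higher (adjusted p = 2.64e-17), Gabrg3 at 74.1, 70.7, 112 and 94.6, at least 44.2-fold higher, and Grm8, a group III receptor, at 43.4, 33.6, 35.0 and 27.8, at least 19.3-fold higher. Gabbr1, the partner of Gabbr2 in the receptor, was present in oligodendrocytes at 106, 117, 172 and 126 CPM against 331, 360.0, 459 and 455 in neurons. It was lower than in neurons in every library, with a log2 difference of 1.18 (SE 0.119, adjusted p = 2.09e-12). The AMPA subunit Gria4 had the smallest difference among the members called, at 55.9, 45.1, 100.1 and 44.2 CPM against 102, 120.2, 169.8 and 105, with a log2 difference of 0.56 (SE 0.163, adjusted p = 0.00214). Gria2 differed more, at a log2 difference of 3.98 (SE 0.126, adjusted p = 7.82e-32).

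Of 34 partner genes tested against oligodendrocytes, 28 were higher in neurons and 3 in the glia, beside the 39.5% and 30.3% of all genes given above. The 3 were Dlg1, a scaffold protein gene (178 ± 38.6 CPM against 78.8 ± 16.2, log2 difference -1.60), Gabarap, a trafficking protein gene (-0.97), and Gphn, which encodes gephyrin (-0.46). The Gphn levels themselves were 154 ± 22.8 CPM in oligodendrocytes and 149.7 ± 17.8 in neurons, higher in oligodendrocytes in 2 of 4 libraries, and its difference is about the size of the scaling shift given below. The most neuronal partners were the kainate auxiliary gene Neto1, Cacng3 and the GABA-A auxiliary gene Shisa7, with no oligodendrocyte UMI, at least 38.5-fold, 26.8-fold and 17.7-fold higher in neurons. Scaling to total UMIs in place of trimmed means moved the median difference of all genes by 0.44 in this contrast, by -0.42 in neurons against OPC and by 0.54 in OPC against astrocytes. The percentage of all calls that were higher in neurons then went from 56.6% to 71.6% against oligodendrocytes and from 67.7% to 48.6% against OPC, and the percentage higher in OPC than astrocytes from 44.3% to 70.0%. No called member of these contrasts changed sign.

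OPC stood above neurons in Grin3a and Gria4, and no OPC UMI was found for several subunits that neurons carried. Of 32 members above the filter 20 were higher in neurons and 3 in OPC (edgeR quasi-likelihood test, library block), beside 23.4% and 11.2% of all genes tested. Their log2 differences had a median of 1.52, or 1.49 with absent genes at their bound, against 0.42 over all genes. Grin3a, an NMDA subunit that lowers calcium flux, stood at 178, 231, 575 and 537 CPM in OPC and 100.5, 107, 171 and 145 in neurons. All OPC values exceeded all neuronal ones, with a log2 difference of -1.15 (SE 0.264, adjusted p = 9.03e-05). For cells with at least 800 genes it was -0.92 (adjusted p = 0.0539), and with cells thinned to 1000 UMIs -1.11 (adjusted p = 0.0536). Gria4 stood at 330.4, 308, 383 and 283 CPM against 102, 120.2, 169.8 and 105. Its ranges were apart as well, with a log2 difference of -1.01 (SE 0.280, adjusted p = 0.00156), or -1.09 (adjusted p = 0.0624) in thinned cells.

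No OPC UMI was found for Gabra5, Gabrq or Grm8. Gabra5 stood at 156, 165, 116 and 138 CPM in neurons, at least 7.02-fold higher. Gabrq stood at 54.9, 87.5, 66.1 and 71.5 CPM, at least 3.18-fold higher, and Grm8 at 43.4, 33.6, 35.0 and 27.8, at least 1.74-fold higher. All 3 passed the test, with adjusted p = 8.67e-10, 6.21e-05 and 0.0073; that of Grm8 was 0.0549 without library 1 and 0.0661 at 800 genes. Gria1 was lower in OPC (82.3 ± 55.6 CPM, log2 difference 3.11, SE 0.345, adjusted p = 6.14e-18). Gria2 was lower by less, at 1423, 1118, 1438 and 1498 CPM in OPC (log2 difference 0.73, SE 0.170, adjusted p = 0.000122), and its adjusted p was 0.12 with counts scaled to total UMIs. Under that scaling Gabbr2, Gabra4, Gabrg1, Gabrg3 and Grm5 also missed the threshold.

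The 9 tested members not called against OPC were Gria3, Gabrb2, Grid1, Grm7 and all 5 kainate subunits. Gria3 averaged 572 ± 155 CPM in OPC and 315 ± 84.2 in neurons (-0.47, adjusted p = 0.0783). The difference was -0.88 (adjusted p = 0.0003) with total UMI scaling, and Grik4 was also called there (-1.97, adjusted p = 0.0161). Neuronal check genes reached up to 96.5% of their neuronal level in OPC, and their part in the values near the neuronal level was not tested. Beside the 23.4% and 11.2% of all genes given above, 11 of 34 partners were higher in neurons and 2 in OPC. The latter were Cacng4, an AMPA auxiliary subunit gene (1829.9, 1388, 1773 and 2036 CPM against 113, 138, 175 and 156, log2 difference -3.22, SE 0.177, adjusted p = 2.13e-71), and Nlgn2, a neuroligin gene (-1.51). The most neuronal were Cacng2, Cacng3 and Cnih3, all AMPA auxiliary genes with no OPC UMI, at least 4.25-fold, 2.41-fold and 2.23-fold higher in neurons.

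Set directly against each other, OPC and astrocytes differed in 7 of the 8 members that passed the low-count filter, 3 higher in OPC and 4 in astrocytes, beside 22.9% and 28.8% of 1070 genes tested. At this depth a gene could pass the filter through 1 class alone, as Gria4 and Grm3 did. The count of 7 therefore does not extend to the members left out. With a mitochondrial limit of 5% 1 member was called, and with at least 800 genes per cell 0 of 1 tested. The median log2 difference of the 8, OPC minus astrocyte, was -0.58, against -0.04 over all genes. Higher in OPC were Gria4, Gria3 and Grin3a. Gria4 was at 330.4, 308, 383 and 283 CPM in OPC and had no UMI in astrocytes, at least 40.8-fold higher (adjusted p = 1.96e-15). Gria3 was at 432, 501, 791 and 565 CPM in OPC against 8.61, 0, 9.66 and 0, a pooled ratio of 108 (95% exact interval 29.0 to 906). Grin3a was at 178, 231, 575 and 537 against 34.5, 79.6, 48.3 and 26.5, a log2 difference of 2.75 (SE 0.413, adjusted p = 1.88e-10). The ranges of all 3 were apart.

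On the astrocyte side, Grm3 had no UMI in OPC and was at least 12.2-fold higher in astrocytes. Gabrb1 (25.4, 0, 47.9 and 28.3 CPM in OPC against 241, 278, 348 and 372) had a log2 difference of -3.61 (SE 0.532, adjusted p = 8.18e-11), and Gabrg1 (50.8, 77.1, 71.9 and 113 against 258, 385, 299 and 239) of -2.10 (SE 0.428, adjusted p = 3.84e-06). Gabbr1 was at 229, 116, 216 and 141 CPM in OPC against 301, 504, 444 and 279, with a log2 difference of -1.26 (SE 0.331, adjusted p = 0.000449). None of these ranges overlapped, and with total UMI scaling the Gabbr1 difference was -0.71 (adjusted p = 0.0588). Gria2 was not called (0.10, adjusted p = 0.667), and was at 0.64 (adjusted p = 0.0005) under that scaling. Of 5 partners tested 2 were higher in OPC (Cacng4, 5.71, and Gabarapl1, 1.01) and 2 in astrocytes (Shisa9, -1.18, and Dlgap1, -0.72), beside 22.9% and 28.8% of all genes tested.

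Members under the low-count filter in the neuron contrasts were Gabrd, Gabre, Gabrr1, Grin2a, Grin2d, Grin3b, Grm2 and Grm4 in all 3, with the neuronal UMIs given above. Gabrr2 was also under it against astrocytes and OPC, Grin2c against oligodendrocytes and OPC, and Grm3 (115 neuronal UMIs) against OPC. Endothelial cells reached 10 cells in 2 libraries, too few for the test. Their members summed to 155 ± 113 CPM (SD, n = 2). Over the endothelial cells of all 4 libraries there were 6 UMIs of Gabbr1, 2 each of Gria2 and Grik2, and 1 each of Gabrb1, Gabrg1 and Grin1.

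The mix of subunits within a family also differed between classes. Among Gria1 to Gria4, Gria2 took 65.1 ± 3.40% of UMIs in neurons and 87.5 ± 5.21% in astrocytes (SD, n = 4). Per library the astrocyte share was 91.2, 91.7, 80.4 and 87.0%, above each neuronal share (67.0, 67.9, 60.3 and 65.4%). In oligodendrocytes Gria4 took 39.6 ± 9.53%, against 4.61 ± 0.681% in neurons and 0% in astrocytes, while Gria2 took 53.7 ± 8.31%. In OPC Gria3 took 24.1 ± 4.04% and Gria4 13.9 ± 1.37%, against 11.6 ± 1.29% for Gria3 in neurons. Gria1 fell short of its neuronal share of 18.6 ± 2.44% in each glial class, at 12.1 ± 5.04% in astrocytes, 2.80 ± 2.48% in oligodendrocytes and 3.60 ± 2.71% in OPC.

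Among the gamma subunits, Gabrg1 took 90.7 ± 0.505% of their UMIs in astrocytes and 30.2 ± 2.50% in neurons. Per library these shares reached 91.2% in astrocytes and did not exceed 33.9% in any neuronal library. As differences of percentage points, neuron minus glia, the paired values were -60.5 ± 2.17 for Gabrg1 and -22.4 ± 1.90 for Gria2 in astrocytes, -35.0 ± 8.94 for Gria4 in oligodendrocytes, and -12.5 ± 3.57 for Gria3 and -9.30 ± 0.906 for Gria4 in OPC. Each of these had the same sign in 4 of 4 libraries, with p = 0.13 in an exact two-sided sign-flip test (adjusted p = 0.134 over 15 shares). That is the smallest p that 4 libraries allow, so the test could not pass 0.05. The Gria2 difference against oligodendrocytes was 11.4, positive in 3 of 4 libraries (exact p = 0.25). With at least 800 genes per cell only 41 astrocytes remained and the Gria2 difference against them was 2.73, of the opposite sign. Grin2c took 78.1% of Grin2 UMIs in the astrocytes of library 3, the library with at least 20 such UMIs.

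**Figure D3:**
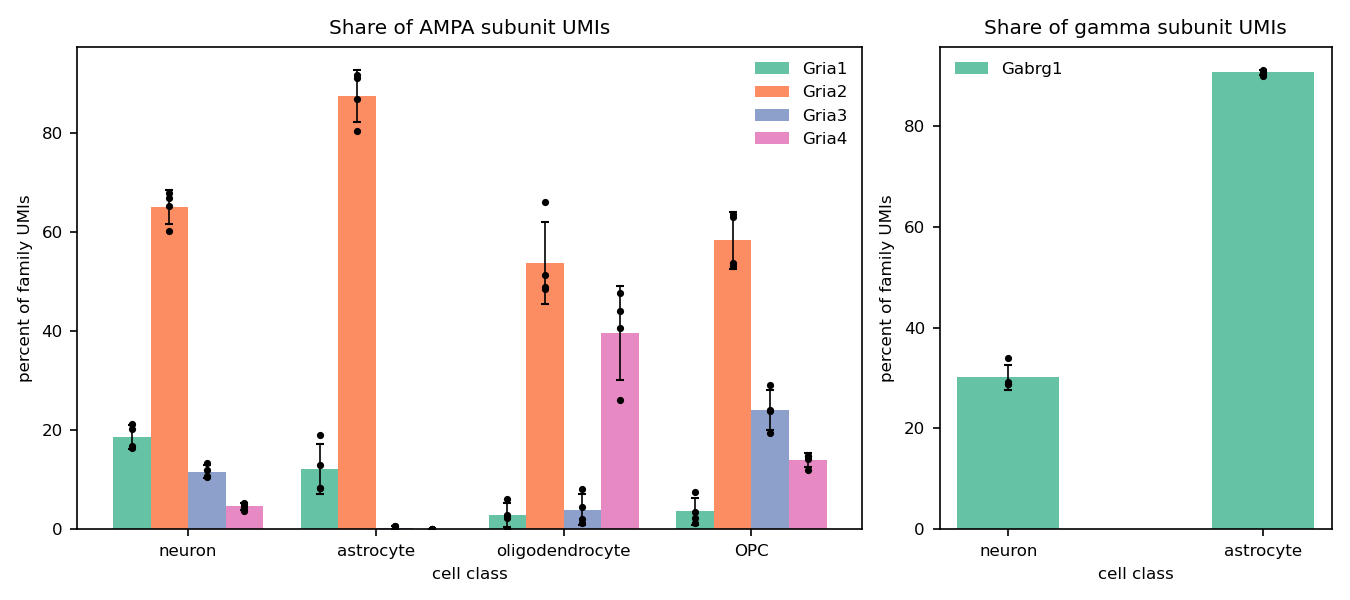
Bars give the mean percentage of a family's UMIs (vertical axis, starting at 0) taken by each subunit in a class (horizontal axis), with SD bars and points for the 4 libraries: Gria1 to Gria4 in neurons, astrocytes, oligodendrocytes and OPC, and Gabrg1 among the gamma subunits in neurons and astrocytes. Gria2 is the tallest AMPA bar in every class, the Gria4 bar is tallest in oligodendrocytes, and the Gabrg1 bar stands at 30.2% in neurons and 90.7% in astrocytes.

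Within neurons, GABAergic and glutamatergic cells differed in 6 of 33 members tested, 4 higher in GABAergic and 2 in glutamatergic cells (edgeR quasi-likelihood test, library block), beside 1.84% and 1.17% of all genes tested. The median log2 difference of these members was 0.19, against 0.05 over all genes.

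Of the members higher in GABAergic cells, the kainate subunit Grik3 stood at 29.4, 28.7, 48.5 and 49.7 CPM against 1 UMI in all glutamatergic cells, a pooled ratio of 19.9 (95% exact interval 3.54 to 787; adjusted p = 0.00024). Gabra5 was at 162, 168, 118 and 143 CPM against 107, 98.2, 63.6 and 35.3 (log2 difference 0.81, SE 0.237, adjusted p = 0.0227). Gria1 was at 394, 393, 705 and 580.2 against 232, 307, 403 and 388 (log2 difference 0.71, SE 0.153, adjusted p = 0.000272), and Gria2 at 1537, 1623, 1989.6 and 1873 against 1334, 1277, 1335 and 1445 (log2 difference 0.41, SE 0.108, adjusted p = 0.00684). All 4 genes were higher in GABAergic cells in each library, and the ranges of Gria1 overlapped. Only 102 cells were glutamatergic, 57 of them in library 1 and 11 in library 3.

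Several of these calls rested on single libraries or on the block. Without the block 2 calls were left, and the adjusted p became 0.3 for Gabra5, 0.0864 for Gria1 and 0.342 for Gria2. Grik3 lost its call without library 1 (adjusted p = 0.207). Gabra5 lost it without library 1, 2 or 4 (0.104, 0.0878 and 0.15), and Gria2 without library 3 or 4 (0.153 and 0.0503). The count of calls was 3 without library 1 and 3 without library 4, and DESeq2 called 1 member. Of 34 partners 4 were called: Neto1 (log2 difference 1.89) and Dlgap1 (1.23) were higher in GABAergic cells, and the cerebellins Cbln1 (-2.23) and Cbln2 (-1.61) in glutamatergic cells. Over all genes tested the shares were 1.84% and 1.17%.

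GABAergic neurons were divided further into gates by the summed UMIs of fixed marker panels, each a gene pair or a single gene, and 9 gates had at least 10 cells in 3 or more libraries. Their sizes were 129 cells for Cck Greb1, 137 for Tac2 Ebf1, 76 for Slc17a8, 236 for Sst Npy, 87 for Six3 Ifi27l2a, 155 for Ppp1r1b Crym, 87 for Zic1 Zic4, 111 for Tshz1 Foxp2 and 134 for Crh Wif1. The markers are not members, the gates are named by their markers and not as cell types, and 1097 GABAergic neurons fell in none. UMIs of either marker of a pair were enough, so cells of a gate need not carry both. A single fit across gates took every gate sum of at least 10 cells. It therefore also held the smaller Lhx8 Rorb gate in 2 libraries and the Prkcd gate in 1. In that fit 24 of 31 members tested differed between gates, beside 32.2% of all genes tested (edgeR quasi-likelihood test, library block). Among the 5 lowest adjusted p values were those of Grik1 (2.98e-19), Grm5 (2.32e-18), Gria2 (1.33e-13) and Gabrq (3.27e-13). Gabrb1, Gabrb2, Grik2, Grik5 and Grin1 were among those not called, and Grin1 is a general part of NMDA receptors. Of the partners 16 of 26 were called. Each of the 9 gates was then set against the other GABAergic neurons of the same libraries, so the 9 comparisons share most of their reference cells. A gate with a high level of a member therefore raises the reference of the other gates.

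**Figure D4:**
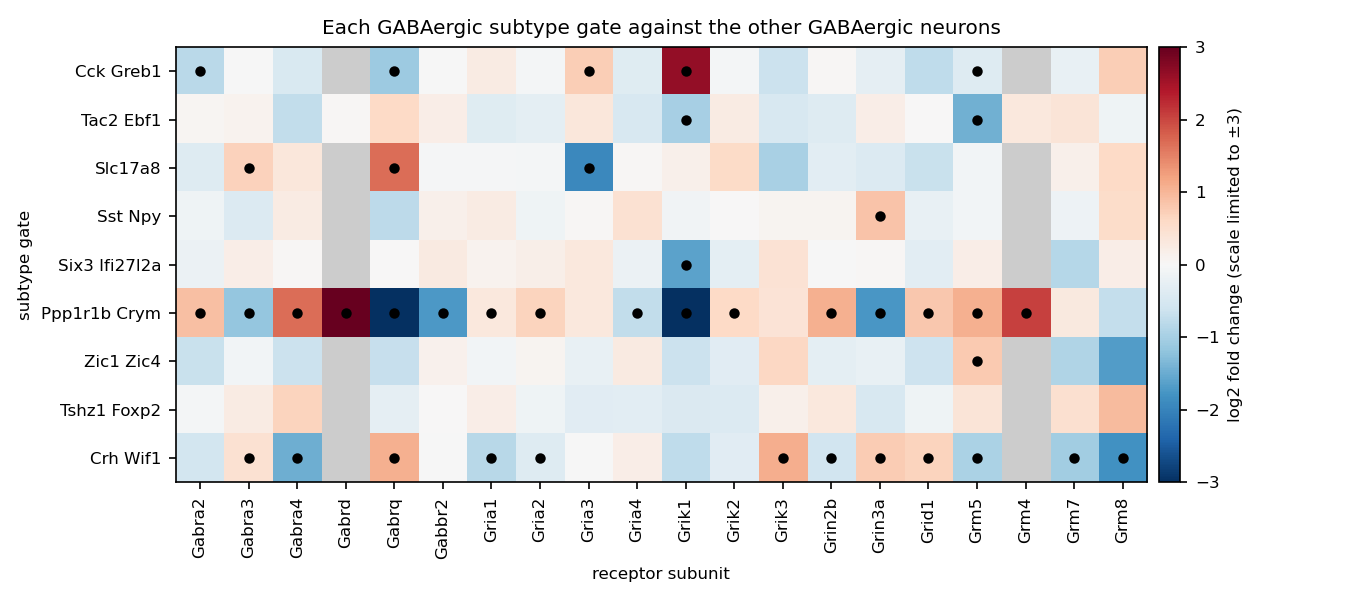
Heat map of the log2 difference between a gate and the other GABAergic neurons (colour, limited to 3 in either direction) for 20 members (horizontal axis) in 9 gates (vertical axis). Dots mark adjusted p under 0.05 and grey marks members under the low-count filter. The Ppp1r1b Crym line of cells holds, for the members drawn, 16 dots and the Crh Wif1 line 12, whereas the Tshz1 Foxp2 line holds none.

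The Ppp1r1b Crym gate stood apart in 20 of 34 members tested, 11 higher and 9 lower than in other GABAergic neurons, beside 17.8% of all genes tested (8.81% higher and 8.99% lower). The members' median log2 difference was 0.21, against -0.03 over all genes. Without the block 13 members were called. Gabrd, the delta subunit of extrasynaptic GABA-A receptors, stood at 50.5, 75.2, 106 and 158 CPM in the gate and 5.19, 5.48, 4.45 and 2.14 in the other neurons. No gate value was near the others, and the log2 difference was 4.35 (SE 0.409, adjusted p = 1.12e-17). Gabra4, the alpha subunit that commonly joins delta, stood at 232, 107, 233 and 215 CPM against 76.9, 52.6, 65.2 and 55.0. Its ranges were apart too, with a log2 difference of 1.68 (SE 0.197, adjusted p = 1.46e-12). Grm4, a group III receptor, stood at 15.2, 43.0, 31.8 and 64.5 against 8.64, 5.48, 11.1 and 9.62, with a log2 difference of 2.05 (SE 0.500, adjusted p = 0.000863). Without library 4 the Grm4 difference was 1.59 (adjusted p = 0.0838).

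Glutamate receptor subunits were also higher in that gate. Grm5 stood at 429, 494, 942 and 875 CPM against 227, 255, 433 and 397, higher within each library although the ranges overlapped, with a log2 difference of 1.06 (SE 0.115, adjusted p = 2.98e-14). Grin2b had a log2 difference of 1.06 (SE 0.126, adjusted p = 2.83e-12). Gria2 averaged 2645 ± 219 CPM against 1700.1 ± 203 (SD, n = 4) and differed by 0.66 (SE 0.0826, adjusted p = 2.7e-11), with ranges apart. Gabra2 (0.90), Grid1 (0.82), Grik2 (0.60) and Gria1 (0.33) were also higher.

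Among the 9 lower members, Grik1 was almost absent from the gate, at 5.05, 0, 0 and 0 CPM from 1 UMI against 72.3, 67.9, 121 and 87.6 in the other neurons. The pooled ratio, other neurons over gate, was 43.3 (95% exact interval 7.74 to 1711; adjusted p = 6.77e-12). The theta subunit gene Gabrq stood at 0, 21.5, 10.6 and 7.17 CPM against 54.2, 92.0, 71.9 and 78.0, a log2 difference of -3.17 (SE 0.500, adjusted p = 8.96e-08). Grin3a stood at 60.6, 21.5, 10.6 and 43.0 against 105, 116, 183 and 157, a log2 difference of -1.74 (SE 0.287, adjusted p = 3.27e-07). All gate values of these 3 genes lay below all others. Gabbr2 stood at 50.5, 10.7, 42.4 and 14.3 against 88.7, 94.8, 138 and 123, also with ranges apart (log2 difference -1.72, SE 0.314, adjusted p = 4.43e-06). Gabra3 (-1.16) and Gria4 (-0.74) were also lower.

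Of the alpha subunit UMIs in the gate, Gabra2 took 26.0 ± 2.16%, Gabra3 11.7 ± 4.63% and Gabra4 22.2 ± 7.20%. In all neurons the same shares were 14.7 ± 3.26%, 23.9 ± 2.77% and 7.64 ± 1.58%. Genes known from striatal projection neurons were present in this gate, with means of 376 CPM for Pde10a, 219 for Rgs9 and 17.2 for Adora2a (9 UMIs), and Drd1 was not analysed here. Their part in the receptor differences was not tested. Of 34 partners 10 were higher in the gate, led by Cacng3 (log2 difference 1.61), the scaffold gene Homer1 (1.46) and Shisa9 (1.37), and 5 lower, led by Cbln2 (-3.44), Nptx1 (-3.06) and Homer2 (-2.49). Over all genes tested 8.81% were higher and 8.99% lower.

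**Figure D5:**
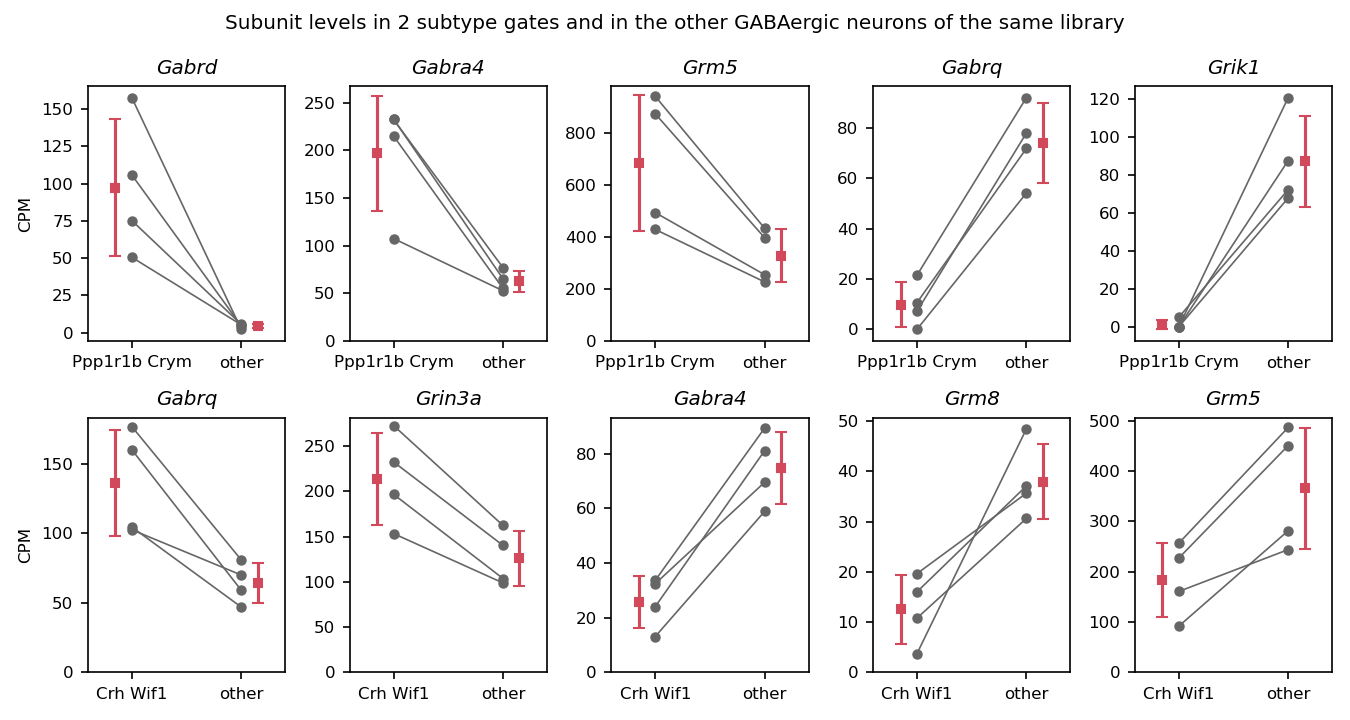
Level in CPM (vertical axes) of 5 members in the Ppp1r1b Crym gate and 5 in the Crh Wif1 gate, each beside the other GABAergic neurons of the same library (horizontal axis); lines join the 2 values of a library, and red squares with bars give the mean and SD over 4 libraries. Every line goes the way of the mean difference; Gabrd and Gabra4 are higher in the Ppp1r1b Crym gate, and Gabrq and Grin3a higher in the Crh Wif1 gate.

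The Crh Wif1 gate, defined by UMIs of the stress peptide gene Crh, of Wif1 or of both, differed in 13 of 33 members tested, 6 higher and 7 lower, beside 5.58% of all genes tested (2.46% higher and 3.12% lower). The median log2 difference of the members was -0.11, against -0.01 over all genes. Gabrq stood at 105, 177, 160.3 and 103 CPM in the gate and 47.0, 81.0, 59.1 and 70.1 in other GABAergic neurons. Its ranges were apart, with a log2 difference of 1.07 (SE 0.195, adjusted p = 4.94e-05). Grin3a stood at 153, 197, 273 and 232 against 98.8, 104, 162 and 140.2, higher within each library with overlapping ranges (log2 difference 0.76, SE 0.152, adjusted p = 0.000269). Grik3 stood at 52.3, 85.2, 40.1 and 113 against 27.6, 23.8, 49.3 and 43.3, higher in 3 of 4 libraries (log2 difference 1.08, SE 0.271, adjusted p = 0.0058), and its adjusted p was 0.13 without library 2 and 0.15 without library 4. Grid1 (0.66) and Gabra3 (0.47) were also higher.

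Lower in the Crh Wif1 gate were metabotropic and AMPA receptor genes, Grin2b and Gabra4. Gabra4 stood at 33.6, 13.1, 24.0 and 32.4 CPM against 89.4, 58.9, 81.1 and 69.5, with ranges apart and a log2 difference of -1.47 (SE 0.294, adjusted p = 0.000259). Grm8 stood at 3.74, 19.7, 16.0 and 10.8 against 48.5, 35.7, 37.1 and 30.7, from 8 UMIs in the gate, with a difference of -1.81 (SE 0.453, adjusted p = 0.00578), and of -1.15 (adjusted p = 0.306) without library 1. Grm5 stood at 161, 91.8, 257 and 227 against 244, 281, 487 and 451, lower within each library with overlapping ranges (log2 difference -0.95, SE 0.138, adjusted p = 3.74e-07). Grm7 stood at 26.2, 26.2, 32.1 and 32.4 against 47.0, 45.3, 94.8 and 65.7 (log2 difference -1.04, SE 0.305, adjusted p = 0.0259) and lost its call without any 1 of the 4 libraries (adjusted p from 0.0655 to 0.15). Gria1 (-0.84), Grin2b (-0.56) and Gria2 (-0.39) completed the list. The count was 8 without library 4. Without the block 4 members were called, and Grik3, Grin3a, Grm8, Grm7 and Grm5 were not (adjusted p = 0.134, 0.112, 0.0603, 0.184 and 0.0577). Of 35 partners 3 were called, all lower (Shisa7, Dlgap1 and Homer1), beside 2.46% of all genes higher and 3.12% lower. Of the alpha UMIs Gabra4 took 2.26 ± 0.767% in this gate.

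The Cck Greb1 gate was marked by Grik1, which stood at 210.1, 285, 422 and 469 CPM in the gate and 55.0, 53.2, 45.5 and 58.5 in the other GABAergic neurons. Every gate value was above every other value, and the log2 difference was 2.63 (SE 0.171, adjusted p = 1.25e-18). In all 5 of 32 members tested were called, 2 higher and 3 lower, beside 5.92% of all genes tested, and 3 were called without the block, 3 without library 1 and 2 without library 2. Gria3 stood at 396, 422, 561 and 664 CPM against 265, 241, 409.9 and 288, higher in each library with overlapping ranges (log2 difference 0.74, SE 0.112, adjusted p = 1.87e-06). Gabrq stood at 34.0, 21.1, 31.0 and 35.4 against 52.9, 92.1, 75.9 and 75.3 (log2 difference -1.09, SE 0.284, adjusted p = 0.0084), with adjusted p = 0.072 without library 2 and 0.13 without library 3. Gabra2 stood at 40.2, 21.1, 132 and 124 against 113, 122, 169.5 and 154 (log2 difference -0.80, SE 0.211, adjusted p = 0.00969), with 0.376 without the block, 0.208 without library 1 and 0.0749 without library 2. Grm5 (201, 221, 387 and 230.3 against 242, 269, 484 and 442; -0.39, SE 0.124, adjusted p = 0.0462) lost its call without any 1 library (0.0537 to 0.409) and without the block (0.698). Of 34 partners 4 were called.

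In the Slc17a8 gate, defined by a vesicular glutamate transporter gene, Gabrq and Gria3 separated the gate from the other GABAergic neurons. Gabrq stood at 214, 196, 221 and 199 CPM against 47.8, 83.5, 57.6 and 67.5, with a log2 difference of 1.68 (SE 0.238, adjusted p = 8.73e-09). Gria3 stood at 53.6, 104, 144 and 46.9 against 282, 257, 457 and 320.4, with a difference of -1.92 (SE 0.226, adjusted p = 2.46e-12). In both cases the ranges were apart. A further 2 of the 32 members tested were called, beside 3.99% of all genes tested, and neither was called without the block, without library 2 or without library 4. Gabra3 (241, 462, 299 and 422 against 199, 259.9, 208 and 195; 0.70, SE 0.161, adjusted p = 0.00139) had adjusted p = 0.0717 without library 2, 0.132 without library 4 and 0.142 without the block. With cells thinned to 1000 UMIs its difference was -0.15, of the opposite sign. Gabra3 took 41.6 ± 9.20% of the alpha UMIs in this gate. Of 31 partners 3 were called.

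In the Tac2 Ebf1 gate, tested in libraries 1, 2 and 4 because library 3 had 9 such cells, Grm5 stood at 104, 109.7 and 122 CPM against 259, 279 and 454. The ranges were apart, with a log2 difference of -1.45 (SE 0.155, adjusted p = 8.52e-08). Grik1 stood at 42.8, 34.3 and 20.3 against 72.7, 67.1 and 86.4 (log2 difference -1.0, SE 0.272, adjusted p = 0.0411), and its adjusted p was 0.131 without library 1, 0.284 without library 4 and 0.177 without the block. These were the 2 of 35 members called, beside 2.44% of all genes tested; 1 was called without the block, 1 without library 1 and 4 without library 2, the last 2 of these fits resting on 2 libraries. Across all genes, scaling to total UMIs took the calls higher in this gate from 52.6% to 40.8%. For Grik1 the reference held the Cck Greb1 gate and lay above the GABAergic neurons outside Cck Greb1 given earlier. The part of the Cck Greb1 gate in the Grik1 difference was not tested. Of 34 partners 2 were called.

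In the largest gate, Sst Npy, 1 of 33 members tested was called, beside 2.1% of all genes. Grin3a stood at 149, 181, 499 and 195 CPM against 94.6, 106, 153 and 143, higher within each library with overlapping ranges (log2 difference 0.86, SE 0.153, adjusted p = 0.000188), and had adjusted p = 0.325 without the block, while 2 members were called without library 3. Of 34 partners 1 was called. In the Six3 Ifi27l2a gate 1 of 32 members was called, beside 1.02% of all genes: Grik1 stood at 50.1, 12.6, 18.5 and 10.1 CPM against 69.4, 66.9, 117 and 85.2, with ranges apart (log2 difference -1.62, SE 0.412, adjusted p = 0.0123). Its adjusted p was 0.18 without the block, 0.0961 without library 2, 0.144 without library 3 and 0.338 without library 4. This reference held the Cck Greb1 gate, and its Grik1 values lay above those of GABAergic neurons outside Cck Greb1 given earlier. The Six3 Ifi27l2a value of 50.1 CPM fell within the range of the latter. The part of the Cck Greb1 gate in the difference was not tested. Of 33 partners 1 was called. In the Zic1 Zic4 gate 2 of 32 members were called, beside 1.86% of all genes. Grm5 stood at 333, 528, 887 and 694 CPM against 235, 255, 446 and 418, higher in each library with overlapping ranges (log2 difference 0.79, SE 0.134, adjusted p = 1.33e-05; 0.223 without the block). Of 33 partners 1 was called.

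In the Tshz1 Foxp2 gate 0 of 32 members tested were called by edgeR, beside 0.89% of all genes tested, with 6 at an unadjusted p under 0.05 and 0 called by DESeq2. The member nearest the threshold was Gabrg1, at 85.9, 81.7, 95.1 and 69.3 CPM against 146, 150.2, 176 and 133 (-0.90, adjusted p = 0.0519). Across all genes the calls higher in this gate went from 42.9% to 54.4% with total UMI scaling, and 0 of 33 partners were called. The Lhx8 Rorb gate (37 cells) and the Prkcd gate (31 cells) had 10 cells in 2 libraries and 1 library. They were not tested against the other GABAergic neurons and entered only the fit across gates.

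Grik1, Grm5 and Gabrq were among the 5 members with the lowest adjusted p across the gates. The Grik1 mean was 347 CPM in the Cck Greb1 gate, 32.5 in Tac2 Ebf1, 22.8 in Six3 Ifi27l2a and 1.26 in Ppp1r1b Crym. Grm5 ran from 112 CPM in Tac2 Ebf1 and 184 in Crh Wif1 to 610.5 in Zic1 Zic4 and 685 in Ppp1r1b Crym. The last 2 values did not separate beyond their spread (SD 236 and 261, n = 4). Gabrq ran from 9.81 CPM in Ppp1r1b Crym and 30.4 in Cck Greb1 to 136 in Crh Wif1 and 208 in Slc17a8. Pairs of gates were not tested against each other.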

How the data were processed

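Single-cell mRNA was measured by Drop-seq in 4 libraries, each of 6 pooled mice. The authors deposited whole-number UMI counts per gene and barcode; the submitters' processing notes name bcl2fastq 2.18.0.12, STAR 2.4.2a, Picard 2.2.4 and the build mm10/GRCm38, while the annotation, counting strand and barcode selection are not given in the sources used here. From these counts, barcodes with at least 400 genes and at most 10% mitochondrial UMIs were kept, and 58 of 4239 (1.37%) were removed as doublets (Scrublet in scanpy 1.11.5, per library, expected rate 0.05). Cells were gated by marker UMIs: at least 3 UMIs of a 6-gene panel and at least 2 times every other panel for broad classes, at least 1 for transmitters, and at least 2 UMIs and 2 times every other gate for 11 GABAergic subtypes. Counts were summed per class and library (at least 10 cells), and classes were compared over at least 3 libraries (2 where a library was left out of the Tac2 Ebf1 gate) with edgeR 4.0.16 (R 4.3.3): TMM scaling, its low-count filter, a quasi-likelihood F-test with the library as a block, and Benjamini-Hochberg adjustment over all genes tested at 0.05. The fit across gates was the exception: it took every gate sum of at least 10 cells, with no minimum of libraries. The pairing comes from the design, as each library yields 1 sum of either class from its own pool of mice. The block takes out the differences between pools themselves, which leaves the variation of the within-library difference between these 4 pools. P-values rest on an edgeR estimate of that spread made with information shared over all genes tested, and not on a gene's own spread alone. A gene's own spread over 4 pools could not give p-values as small as the lowest printed here, which rest mostly on the shared estimate. The SE of a log2 difference was derived from it and its F statistic. Levels, intervals and shares used Python 3.11.15, numpy 2.4.6, scipy 1.17.1 and pandas 2.3.3, and shares needed 20 UMIs of a family. The fit was tested on simulated data.

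Named members were the 4 largest differences in each direction in broad contrasts and all called members, up to 4 in each direction, in subtype contrasts. The values of 5 members are not reported here and count only in totals; families of 2 genes that hold 1 of them were not searched for values standing apart. Others were named after their values were seen, as were the 4 promoters, the motifs, the shares compared and the figure genes. The gene set, its marker panels and the partner list were proposed with earlier results of these data known. The 16 alternatives are another scaling, filter, tool (DESeq2 1.42.0), gate, quality limit, thinning depth (1000 UMIs) or block and leaving out each library; total UMI scaling was chosen after seeing the data. Gene positions are from GENCODE vM21 (43 of 43 matched, 18 with exons overlapping another gene).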

Additional observations from a re-analysis of the deposited data

Results flagged for a closer look

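Among 38 sets of 4 library values (the sum of a receptor family in a class) 1 held a value far from the other 3 libraries, and 1.9 such sets would be met by chance at 1 in 20. The alpha subunit sum in neurons was 961.282 CPM in library 2, above the other libraries.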

How the results depend on the processing

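The counts of members called by the fit with the block were 31 against astrocytes, 33 against oligodendrocytes, 23 against OPC, 7 for OPC against astrocytes, 6 for GABAergic against glutamatergic cells, and 5, 2, 4, 1, 1, 20, 2, 0 and 13 for the 9 gates in the order Cck Greb1, Tac2 Ebf1, Slc17a8, Sst Npy, Six3 Ifi27l2a, Ppp1r1b Crym, Zic1 Zic4, Tshz1 Foxp2 and Crh Wif1, with 24 across gates. Over all alternatives 169 counts stayed within 1.5 times and 66 did not. Leaving out each library in turn gave 31 to 31, 33 to 34, 17 to 23, 7 to 8 and 3 to 5 for the broad contrasts, then 2 to 4, 1 to 4, 2 to 4, 1 to 2, 0 to 1, 16 to 19, 1 to 2, 0 to 0 and 8 to 10 for the gates and 18 to 23 across them. The Tac2 Ebf1 gate gave 1, 4, 2 and 3 without libraries 1, 2, 3 and 4, from 2 libraries where 1, 2 or 4 was left out. Without the pairing by replicate block the counts were 2 for GABAergic against glutamatergic cells, 3 for Cck Greb1, 1 for Tac2 Ebf1, 2 for Slc17a8, 0 for Sst Npy (7 at an unadjusted p under 0.05), 0 for Six3 Ifi27l2a (2), 13 for Ppp1r1b Crym, 0 for Zic1 Zic4 (4) and 4 for Crh Wif1. Thinning each cell to 1000 UMIs, which leaves out shallower cells, gave 20 against astrocytes, 10 against OPC, 0 for OPC against astrocytes (1 member tested), 2 for GABAergic against glutamatergic cells, 2 for Cck Greb1, 0 for Tac2 Ebf1 (4 at an unadjusted p under 0.05), 1 for Slc17a8, 0 for Six3 Ifi27l2a (0), 10 for Ppp1r1b Crym, 0 for Zic1 Zic4 (5), 2 for Crh Wif1 and 10 across gates. With at least 800 genes per cell, which left 41 astrocytes, 20 were called against astrocytes and 0 for OPC against astrocytes (1 member tested). A mitochondrial limit of 5% gave 1 for OPC against astrocytes, 3 for GABAergic against glutamatergic cells, 3, 1, 2, 2, 0, 1 and 7 for Cck Greb1, Tac2 Ebf1, Slc17a8, Sst Npy, Six3 Ifi27l2a (2 at an unadjusted p under 0.05), Zic1 Zic4 and Crh Wif1. DESeq2 gave 1 for GABAergic against glutamatergic cells and 2, 1, 0, 1 and 7 for Cck Greb1, Tac2 Ebf1, Six3 Ifi27l2a (1 at an unadjusted p under 0.05), Zic1 Zic4 and Crh Wif1. No low-count filter gave 15 for OPC against astrocytes and 5, 1 and 1 for Tac2 Ebf1, Zic1 Zic4 and Tshz1 Foxp2. Removing barcodes with an undetermined last base gave 2, 1 and 1 for Sst Npy, Zic1 Zic4 and Tshz1 Foxp2, the stricter broad gate 4 for Tac2 Ebf1, and the subtype gate at 3 UMIs 4, 2, 0 and 1 for Tac2 Ebf1, Sst Npy, Six3 Ifi27l2a (2 at an unadjusted p under 0.05) and Tshz1 Foxp2. The cause of these changes was not tested beyond the cells or genes each setting removes. The share of all genes called under each alternative is not given here, so these counts are not read against it.

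Of the log2 differences of named members, 842 values kept direction and call, 122 lost the call and 1 changed sign: Gabra3 in the Slc17a8 gate, at -0.15 with cells thinned to 1000 UMIs. Not every named member has a value under every setting, and those without one are not in these counts. With thinning 23 values kept the call and 18 lost it, beside 65 kept with doublets left in. Keeping doublets or using DESeq2 size factors cost no call. The share differences, neuron minus glia in percentage points, ranged over left-out libraries from -61.6 to -60.1 for Gabrg1 and from -23.2 to -21.8 for Gria2 in astrocytes, from 9.11 to 15.5 for Gria2 in oligodendrocytes and from 4.26 to 8.24 for Gria2 in OPC. The Gabrg1 difference was -54.6 with the 5% mitochondrial limit, and the Gria2 difference in astrocytes was 2.73 with at least 800 genes per cell, where the minimum of 20 UMIs was not applied. Depth limits the glial classes most: astrocytes held 370423 and OPC 142378 UMIs in all, against 9720836 in neurons.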
